A study of Mus musculus with 37 samples.

Results

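Tbx6, Kif22, Zg16, AI467606, Qprt, Mylpf, Spn, Septin1 and 4930451I11Rik are 9 genes of the stretch of mouse chromosome 7 syntenic to human 16p11.2. They were chosen by 2 criteria: their best known work lies outside the adult brain, and their measured dosage slope in brain, the change of array signal with copy number, was weak. They make up 9 of the 30 interval genes measured and 9 of the 19938 genes on the array table. Each is represented by 1 probe set, which was the only one with its gene symbol alone. Because the slope chose them, every slope and every comparison of df/+ or dp/+ with +/+ given for these genes is a description and carries no test. Differences between brain regions, and differences of the slope between regions, were not used in the choice and were tested.

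All animals were F1 C57BL/6N:129Sv males, and they differed by design in the engineered segment alone. The 2 df/+ mice had 1 copy of it, the 3 +/+ mice had 2, and the 3 dp/+ mice had 3, so that all interval genes changed copy number together in a mouse. Total RNA from whole olfactory bulb, cortex, cerebellum and brain stem gave 31 region samples on 37 arrays, with no cortex from dp/+ mouse 3. The labels give no age, and the tissues were not sorted by cell type, so fewer cells of a type and less RNA per cell cannot be told apart in these values. Genes listed as markers of a region were mostly highest in their own region of +/+ brain. This held for 8 of 8 bulb, 5 of 6 cortex, 8 of 8 cerebellum and 6 of 6 brain stem genes measured. In +/+ brain stem the cortex markers Tbr1 and Neurod6 were 8.005 ± 1.383 and 7.361 ± 1.273 log2 (SD, n = 3). Lamp5 and Rasgrf2 were 11.053 ± 0.247 and 10.132 ± 0.110 there. In +/+ cortex the SD of Tbr1 was 0.113 and that of Neurod6 0.058. Whether tissue of another region entered a brain stem sample was not tested.

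The 9 genes belong to different tissues. Tbx6 encodes a T-box transcription factor of the presomitic mesoderm, from which the somites and the vertebrae form, and loss of the human gene is linked to congenital scoliosis. Kif22 encodes a kinesin that binds chromosomes and pushes their arms outward on the spindle of dividing cells. Qprt encodes quinolinate phosphoribosyltransferase, which turns quinolinate, a tryptophan breakdown product that excites NMDA receptors, into a precursor of NAD. Mylpf encodes the phosphorylatable regulatory light chain of fast skeletal muscle myosin. Spn encodes CD43, a heavily glycosylated surface protein of leukocytes, and Septin1 a filament-forming GTPase found mainly in lymphocytes. Zg16 encodes a lectin-like protein secreted by goblet cells of the gut and stored in zymogen granules of the pancreas. 4930451I11Rik is the mouse counterpart of a human gene for a sperm membrane protein, and AI467606 encodes a membrane protein found mainly in blood cells.

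Promoter sequences from RefSeq (GRCm38.p6) were matched by symbol for 7 of the 9 genes, and Zg16 and Septin1 were not among them. The 250 bases before the start of 4 genes are shown because they span the range of CG dinucleotides among the 7 and carry the motifs described next. They are written 5′ to 3′ on the strand of the gene, with each CG in capitals. They lie at chr7:126781233-126781482 on the plus strand (Tbx6), chr7:127042421-127042670 on the minus strand (Kif22), chr7:127122030-127122279 on the minus strand (Qprt) and chr7:127211358-127211607 on the plus strand (Mylpf).
Tbx6: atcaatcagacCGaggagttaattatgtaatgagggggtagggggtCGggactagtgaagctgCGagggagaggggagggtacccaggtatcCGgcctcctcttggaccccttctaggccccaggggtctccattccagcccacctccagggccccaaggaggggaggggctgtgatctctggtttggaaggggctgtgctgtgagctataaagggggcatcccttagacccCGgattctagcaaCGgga
Kif22: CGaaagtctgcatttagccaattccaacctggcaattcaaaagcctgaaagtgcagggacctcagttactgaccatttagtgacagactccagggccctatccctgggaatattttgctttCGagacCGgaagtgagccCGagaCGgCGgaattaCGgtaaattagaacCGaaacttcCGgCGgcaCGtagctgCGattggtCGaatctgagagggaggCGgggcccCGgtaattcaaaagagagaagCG
Qprt: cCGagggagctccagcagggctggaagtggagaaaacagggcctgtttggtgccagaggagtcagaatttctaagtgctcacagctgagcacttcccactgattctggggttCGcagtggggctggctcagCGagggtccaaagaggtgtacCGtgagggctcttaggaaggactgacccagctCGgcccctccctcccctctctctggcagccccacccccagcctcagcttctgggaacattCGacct
Mylpf: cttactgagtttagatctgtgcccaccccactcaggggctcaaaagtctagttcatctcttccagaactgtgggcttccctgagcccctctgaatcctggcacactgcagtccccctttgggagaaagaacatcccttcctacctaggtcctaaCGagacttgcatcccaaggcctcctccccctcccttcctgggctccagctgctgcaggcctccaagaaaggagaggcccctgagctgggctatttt

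In the full window of 300 bases, which adds the 50 bases after the start, the Kif22 promoter had 19 CG dinucleotides and the other 6 had few. The count was 2 for Mylpf, 3 for Spn, 4 for 4930451I11Rik, 7 for Qprt, 7 for Tbx6 and 8 for AI467606. Among all 32851 windows of the table, 54.2% had at most 8 and 28.1% at least 19, with a median of 7. The first listed window of the 17 other interval genes with an entry had a median of 22, and in 3 of them, Gdpd3, Mvp and Tlcd3b, all windows had at most 8. These 3 names were chosen after their values were seen, and Gdpd3 had the steepest slope of the interval and Mvp the shallowest of the other genes. The plot of CG count against slope shows that CG-poor windows occurred at the lowest and at the highest slope.

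**Figure D1:**
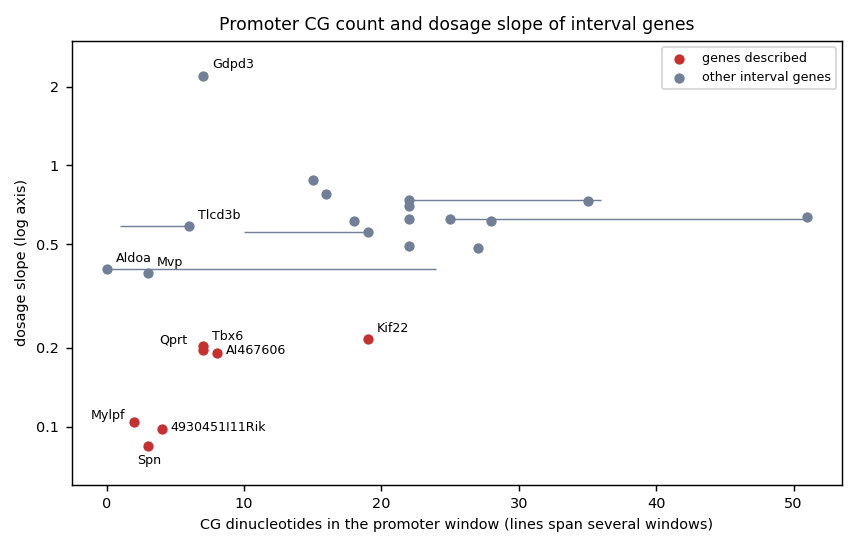
The horizontal axis gives CG dinucleotides in the promoter window of 300 bases and the vertical axis, on a log scale, the dosage slope across the brain, for 7 of the 9 genes (red) and 17 other interval genes (grey). Points are the first listed window, and lines span the windows of genes with several. Of the red points, 6 lie at 8 CG or fewer and Kif22 at 19.

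Short motifs were searched on both strands of the 300 bases, after the sequences had been seen, and none of the 5 contains another. TATAAA, the core of a TATA box, was found in Tbx6 alone among the 7 genes, in 1 of the 17 other interval genes and in 13.6% of all windows. CCAAT and TTTGAA, which stand together at many promoters of mitotic genes, were both found in Kif22 and in none of the other 6. They were found in 6 and 1 of the 17 other interval genes and in 37.4% and 17.9% of all windows. CAGCTG, an E-box of the kind that MyoD binds, was found in Mylpf, AI467606 and Qprt, in 5 of the 17 and in 16.3% of all windows. ACTTCC, the core bound by ETS factors, was found in Spn, AI467606, Kif22 and Qprt, in 6 of the 17 and in 23.8% of all windows. A match describes letters in a window and is no evidence of binding.

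The first comparison asked how far the signal of each gene followed the number of copies across the brain. The measure is the dosage slope, the change in log2 signal per unit of log2 copies. A slope of 1 means a signal proportional to copies and 0 means no change of signal. No detection call was used, and how much of each signal came from the gene's own transcript was not tested. Slopes of the 9 genes ran from 0.084 to 0.216 with a median of 0.176, against a median of 0.015 over all 19938 genes. Most of the 9 lie in the lowest 4 deciles of +/+ signal. There, genes outside the interval had median slopes of 0.049, 0.053, 0.051 and 0.04. The 21 other measured interval genes had a median of 0.624, and all 21 passed the threshold of an adjusted p of 0.05 in limma's fit, as did 0.11% of all genes. The choice by slope set these 21 apart from the 9, so nothing is read from the difference between them. At the edge of the choice, Kif22 at 0.216 ± 0.040 (SE) was the steepest of the 9, and Mvp at 0.386 ± 0.051 and Aldoa at 0.401 ± 0.036 were the shallowest of the others. Pagr1a at 0.881 ± 0.067 and Gdpd3 at 2.207 ± 0.158 were the steepest of the others. A signal proportional to copies would lie at 50% of the +/+ level in df/+ mice and 150% in dp/+ mice, and the 9 genes lay between 88.2% and 107.6% in df/+ mice and between 102.9% and 118.8% in dp/+ mice.

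**Figure D2:**
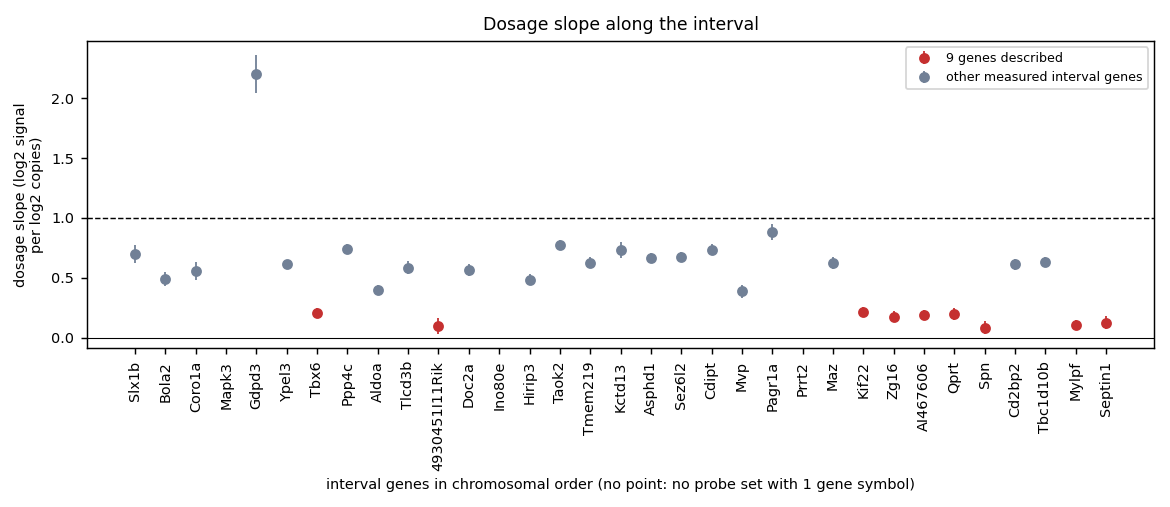
The vertical axis gives the dosage slope across the brain (log2 signal per log2 copies, 8 mice), with bars of 1 SE, and the horizontal axis lists the 33 interval genes in chromosomal order. The dashed line marks a slope of 1, proportional to copies. The 9 genes (red) lie between 0.084 and 0.216, below all 21 others (grey), and the choice of the 9 used these slopes.

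By gene order in the reference, 5 of the 9 stand side by side: Kif22, Zg16, AI467606, Qprt and Spn. Mylpf and Septin1 are the last 2 genes of the interval, and Tbx6 and 4930451I11Rik stand alone among genes with steeper slopes. In the reference the spans of Mylpf and Septin1 overlap. No label gives the strand design of the array, so how far signal from the overlap could enter both values was not tested.

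For Tbx6, the somite factor, the signal relative to the +/+ mean, averaged over the regions of a mouse, was −0.203 and −0.145 log2 in the df/+ mice. It was −0.042, −0.032 and 0.074 in the +/+ mice and 0.219, 0.158 and 0.077 in the dp/+ mice. The 3 genotypes did not overlap, although the highest +/+ mouse lay close to the lowest dp/+ mouse. The slope was 0.204 ± 0.042, which left 88.7% of the +/+ signal in df/+ mice and 111.1% in dp/+ mice.

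For Kif22, the chromosome-arm kinesin, df/+ mice lay at −0.245 and −0.118, +/+ mice at 0.030, 0.008 and −0.039, and dp/+ mice at 0.206, 0.110 and 0.173. The genotypes again formed 3 separate groups. The percentages of the +/+ signal were 88.2% and 111.9%, the lowest df/+ level of the 9 genes.

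AI467606, the blood cell gene, was the third whose genotypes were separate. Its df/+ mice lay at −0.160 and −0.126, its +/+ mice at 0.033, −0.009 and −0.024, and its dp/+ mice at 0.163, 0.134 and 0.194. It had the smallest spread between mice of the 9 genes, with an SD of 0.074 within genotype and region. Across the 19938 genes, 0.677% had both df/+ mice below and all dp/+ mice above the +/+ mice. Nothing is read from the 3 members against this share, since the choice used these contrasts.

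For Qprt, the enzyme of NAD synthesis, 1 df/+ mouse lay at −0.201 and the other at −0.011, within the +/+ values of 0.118, −0.099 and −0.020. The dp/+ mice lay above them at 0.189, 0.229 and 0.214. The df/+ change was −0.106 ± 0.076 (SE), and it was −0.011 or −0.201 when either df/+ mouse was left out. The dp/+ change was 0.211 ± 0.068, or 115.7% of +/+.

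Zg16, the secretory lectin, had a like shape. Its df/+ mice lay at −0.051 and −0.063, 1 among and 1 just below the +/+ mice at 0.104, −0.055 and −0.049, and its dp/+ mice above both at 0.20, 0.207 and 0.277. The percentages were 96.1% and 117.1%.

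Mylpf, the muscle light chain, lay below the +/+ mice in both df/+ mice, while 2 dp/+ mice lay above the highest +/+ mouse and 1 among the +/+ mice. The values were −0.165 and −0.078 in df/+, 0.042, 0.017 and −0.059 in +/+, and 0.083, −0.030 and 0.072 in dp/+ mice. The dp/+ change of 0.042 ± 0.056 was the smallest of the 9, and it turned to −0.043 after cyclic loess between arrays and after quantile normalisation within regions.

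Spn, the leukocyte sialoglycoprotein, was above the +/+ mean in mice of both copy numbers. Its df/+ mice lay at 0.074 and 0.138, its +/+ mice at 0.019, −0.061 and 0.041, and its dp/+ mice at 0.264, 0.224 and 0.255. The percentages were 107.6% in df/+ and 118.8% in dp/+, the highest of the 9 genes in each, and the slope of 0.084 ± 0.057 was the shallowest. Without df/+ mouse 2 the slope was 0.141.

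Septin1, the lymphocyte septin, had the widest +/+ values of the 9, at 0.160, −0.144 and −0.016. Its df/+ mice lay inside them at −0.107 and −0.038, and its dp/+ mice overlapped them at 0.116, 0.10 and 0.174. For 4930451I11Rik, the sperm membrane protein gene, +/+ mice spread nearly as far, at 0.136, −0.142 and 0.006, with df/+ mice at −0.005 and 0.144 and dp/+ mice at 0.310, 0.202 and 0.186. Its dp/+ mice lay above all others, while 1 df/+ mouse lay above all +/+ mice.

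Over the 9 genes the deletion gave a median change of −0.106 log2 and the duplication 0.164. For 4 genes the df/+ mice were both below the lowest +/+ mouse, against 13.8% of all genes, and for 7 the dp/+ mice were all above the highest, against 17% of all genes. These contrasts belong to the choice, so nothing is read from the counts. The summed signal of the 9 genes, as a percentage of +/+, was 93.4% to 100.6% in df/+, 94.6% to 105.8% in +/+ and 112.2% to 116.5% in dp/+ mice.

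**Figure D3:**
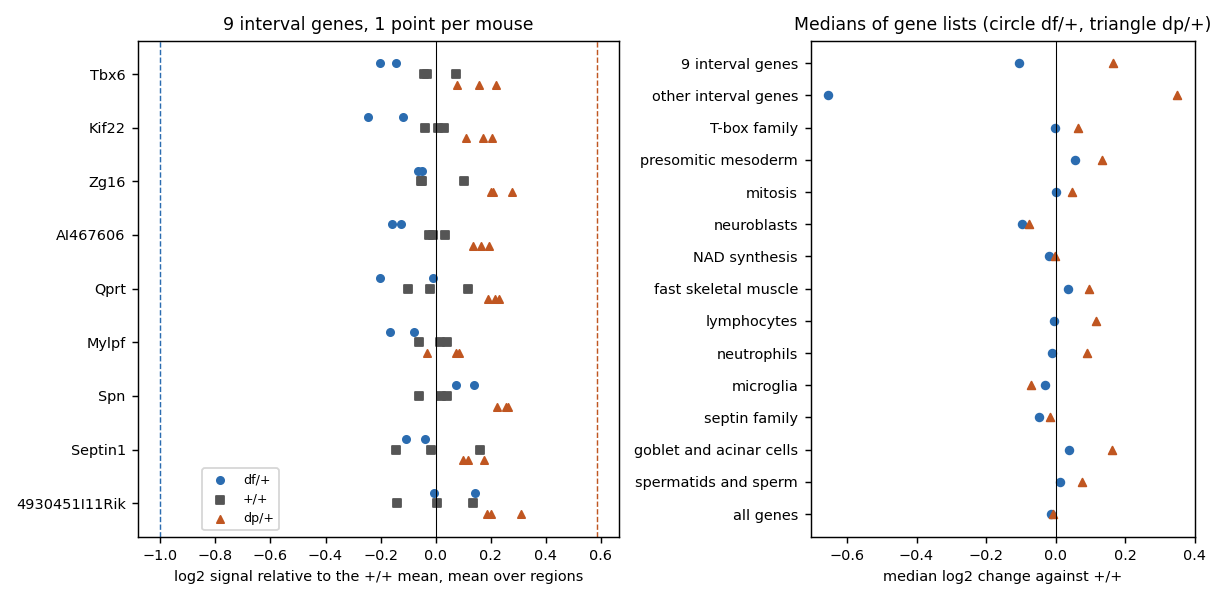
Left, log2 signal relative to the +/+ mean of the region, averaged over regions, with 1 point per mouse (circles, 2 df/+; squares, 3 +/+; triangles, 3 dp/+). Dashed lines mark values proportional to 1 and 3 copies. Right, the median log2 change over each gene list in df/+ (circles) and dp/+ mice (triangles). All points of the 9 genes lie well inside the dashed lines. Their medians are −0.106 in df/+ and 0.164 in dp/+ mice. Goblet and acinar cell genes, the nearest list in dp/+ mice, have medians of 0.039 and 0.163. The other lists of partners and cells have dp/+ medians from −0.077 to 0.134.

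The 9 genes gave low signals, and genes of low signal in general were higher in dp/+ mice. By +/+ signal the 9 genes stood at the 9.08th to 54.7th percentile of all probe sets chosen, with a median of 35, and the other interval genes had a median of 67.1. Such a rank compares probe sets, not amounts of transcript. In the deciles of +/+ signal, genes outside the interval had median dp/+ changes of 0.077, 0.094, 0.098 and 0.073 in the lowest 4, and of −0.022 to −0.078 in the upper 6. Zg16 is in decile 1, Kif22, AI467606 and Mylpf are in decile 3, Tbx6, Spn and Septin1 in decile 4, Qprt in decile 5 and 4930451I11Rik in decile 6. After cyclic loess between arrays the lowest 4 deciles had medians of 0.006 to 0.028, and the median dp/+ change of the 9 genes was 0.0896. In df/+ mice the medians of the 10 deciles ran from −0.047 to 0.013. The part of this shift in the dp/+ values of the 9 genes was not tested.

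The error of a single array was also larger for these genes. The SD between 2 arrays of a sample had a median of 0.141 over the 9, from 0.079 for Spn to 0.169 for AI467606, against 0.083 over the other interval genes and 0.095 over all genes. The SD between mice of a genotype and region had a median of 0.150, against 0.132 and 0.129.

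The second comparison asked whether the weak slope was the same in the 4 regions. Median slopes of the 9 genes were 0.188 in the cortex, 0.140 in the brain stem, 0.128 in the cerebellum and 0.119 in the olfactory bulb. With array weights the cerebellum value was 0.237. Single genes went from −0.006 ± 0.097 (SE) for Spn in the brain stem to 0.301 ± 0.056 for AI467606 in the brain stem. The slope of no gene among the 9 differed between regions by limma's F test at an adjusted p of 0.05, and none had an unadjusted p below 0.05. Of all genes, 0.0502% passed this test. The smallest p of the 9, for AI467606, was 0.0782 before adjustment and 1 after it. A miss of the threshold does not show that slopes were equal.

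Within regions the +/+ and dp/+ samples were most often separate in the cortex. There both dp/+ samples lay above all 3 +/+ samples for 9 of the 9 genes, against 25.9% of all genes, and only 2 dp/+ mice had a cortex sample. In the cerebellum it was 6 of 9, against 16.1%, in the olfactory bulb 1 of 9, against 8.87%, and in the brain stem 1 of 9, against 2.83%. In the other direction, both df/+ samples lay below all +/+ samples for 5 of 9 in the brain stem, 5 in the bulb, 2 in the cortex and 1 in the cerebellum. The shares of all genes were 9.32%, 14.6%, 14.3% and 19.2%. All 3 genotypes were separate for 2 cortex genes, against 1.29% of all genes, for 1 of brain stem, against 0.211%, and for none in the olfactory bulb and the cerebellum, against 0.306% and 0.271%. These counts rest on contrasts that the choice used, and no call is read from them.

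Some genes showed the 2 directions in different regions. Tbx6 in the cortex was 6.70 and 6.82 log2 in df/+ mice, 6.70, 6.89 and 7.02 in +/+ mice, and 7.26 and 7.20 in dp/+ mice, so that dp/+ samples were separate and df/+ samples were not. In the olfactory bulb it was 6.89 and 6.77 in df/+, 7.10, 7.05 and 7.10 in +/+ and 7.02, 7.22 and 7.22 in dp/+ mice, so that df/+ samples were separate and dp/+ samples overlapped. Kif22 in the olfactory bulb was 6.21 and 6.45 in df/+, 6.72, 6.78 and 6.54 in +/+, and 6.70, 6.53 and 6.72 in dp/+ mice. Its dp/+ mean there was 98.0% of +/+, while in the cerebellum, at 6.87, 6.78 and 6.98 against 6.56, 6.57 and 6.43 in +/+ mice, it was 128.5%. AI467606 in the brain stem was the 1 case in which a region other than cortex separated all 3 genotypes, with 6.29 and 6.27 in df/+, 6.52, 6.61 and 6.52 in +/+, and 6.66, 6.67 and 6.94 in dp/+ mice.

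**Figure D4:**
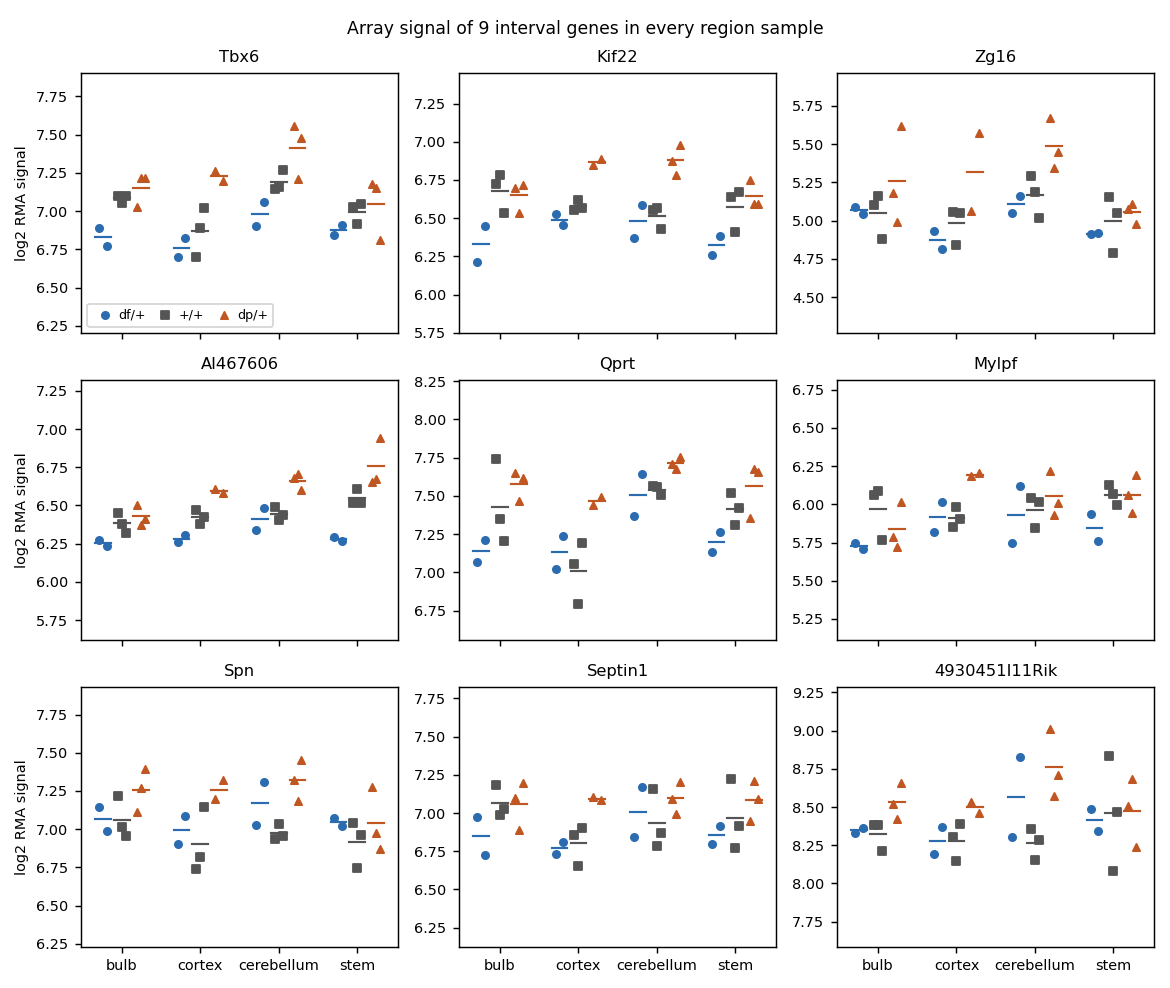
Each panel gives 1 gene, with log2 RMA signal on the vertical axis over the same span of 1.7 and the 4 regions on the horizontal axis. Points are region samples (circles df/+, squares +/+, triangles dp/+) and lines are means. The dp/+ samples of the cortex lie above the +/+ samples in all 9 panels.

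The third comparison asked where in +/+ brain each gene was highest. Qprt and Tbx6 differed between regions of the 3 +/+ mice (limma's F test with the mouse as a block, adjusted p = 0.00344 and 0.0241), and the other 7 genes did not pass. These 2 of 9 stand against 58% of all genes and 14 of the 21 other interval genes that passed. The shares are not matched for signal. When only the 9969 genes of higher mean signal were fitted, which leave out most of the 9, 8017 passed. The share among genes as dim as the 9 was not tested, so nothing is read from the low count.

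Qprt was lowest in the cortex. In +/+ mice it was 7.05, 6.79 and 7.19 log2 in the cortex, 7.52, 7.31 and 7.42 in brain stem, 7.74, 7.35 and 7.21 in the bulb, and 7.56, 7.56 and 7.50 in the cerebellum. All cortex samples lay below all samples of the other 3 regions. From low to high the means were 7.011 ± 0.202 (SD, n = 3) for cortex, 7.416 ± 0.105 for brain stem, 7.431 ± 0.276 for olfactory bulb and 7.541 ± 0.033 for cerebellum. The difference of cortex minus cerebellum was −0.53 ± 0.112 (SE, adjusted p = 0.00145, limma) and that of cortex minus brain stem −0.405 ± 0.112 (adjusted p = 0.00999), while the bulb exceeded the cortex by 0.419 ± 0.112 (adjusted p = 0.00796). Of all genes, 36.6%, 28.7% and 35.5% passed for these pairs. Neighbours above the cortex in this order did not differ beyond their spread. Without +/+ mouse 2, whose cortex was the lowest, the F test gave an adjusted p of 0.108, and all 3 of these pairs missed the threshold.

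In the 5 mice with 1 or 3 copies Qprt was again highest in the cerebellum, while the low cortex of +/+ mice did not pass. The means were 7.298 ± 0.212 (SD, n = 4) for cortex, 7.403 ± 0.257 (n = 5) for olfactory bulb, 7.418 ± 0.24 (n = 5) for brain stem and 7.629 ± 0.152 (n = 5) for cerebellum. The cortex mean lacks dp/+ mouse 3. With the mouse in limma's fit, bulb minus cortex was 0.057 ± 0.070 (SE, adjusted p = 0.544). Cortex minus brain stem was −0.071 ± 0.070 (adjusted p = 0.436). The regions differed (limma's F test with the mouse as a block, adjusted p = 0.00546). Here it was the cerebellum that stood above the other 3, with differences of −0.283 ± 0.070 (SE) for cortex minus cerebellum, −0.226 ± 0.065 for bulb minus cerebellum and 0.211 ± 0.065 for cerebellum minus brain stem. Their adjusted p were 0.00283, 0.00811 and 0.0124 (limma), and 47.5%, 44.9% and 54.8% of all genes passed for these pairs. The test over regions missed the threshold without df/+ mouse 2 (adjusted p = 0.0525) and after cyclic loess (adjusted p = 0.0802).

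Tbx6 was highest in the cerebellum. In +/+ mice it was 7.15, 7.16 and 7.27 there, 7.10, 7.05 and 7.10 in the bulb, 7.03, 6.91 and 7.05 in brain stem and 6.70, 6.89 and 7.02 in cortex. The cerebellum samples lay above all others. The means were 7.192 ± 0.069 (SD, n = 3), 7.084 ± 0.028, 6.996 ± 0.073 and 6.871 ± 0.160 in that order. Of the 6 pairs of regions only cortex and cerebellum passed, with a difference of cortex minus cerebellum of −0.321 ± 0.086 (SE, adjusted p = 0.00782, limma), so no neighbours in the order differed beyond their spread. The F test lost its call without +/+ mouse 1, 2 or 3 (adjusted p = 0.085, 0.141 and 0.0854), with arrays centred on their medians (0.0922) and after cyclic loess (0.089). In the mice with 1 or 3 copies Tbx6 was also highest in the cerebellum, at 7.241 ± 0.275 (SD, n = 5), and lowest in the brain stem, at 6.978 ± 0.174 (n = 5). That difference over regions had an adjusted p of 0.0407 and was lost when df/+ mouse 2 (0.0956), dp/+ mouse 1 (0.141) or dp/+ mouse 3 (0.0883) was dropped. It was also lost with the first array only (0.076), with arrays centred on their medians (0.132) and after cyclic loess (0.328). Qprt and Tbx6 passed in both sets of mice, as did 52.8% of all genes.

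Of the genes outside the interval, those whose signal over the 31 samples was most like that of Qprt were Spon2, Btbd17 and Fer1l6, with Pearson's r of 0.851, 0.836 and 0.825. For Tbx6 they were Mgarp, Rnase10 and C9, with 0.809, 0.790 and 0.790. The samples share mice and regions, and these values describe likeness only.

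Septin1 did not pass the test over the 4 regions of +/+ brain (adjusted p = 0.102), but of its pairs the olfactory bulb exceeded the cortex by 0.259 ± 0.088 (SE, adjusted p = 0.032). The bulb samples were 7.18, 6.99 and 7.02, above the cortex samples of 6.86, 6.65 and 6.90. The pair missed the threshold without any 1 of the 3 +/+ mice (adjusted p = 0.0891, 0.242 and 0.0515). At least 1 of the 6 pairs passed for 3 of the 9 genes and for 65.5% of all genes.

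In the mice with 1 or 3 copies 5 of the 9 genes differed between regions (limma's F test with the mouse as a block), against 70.4% of all genes, a share not matched for signal. Beside Qprt and Tbx6 the genes that passed were Kif22, Mylpf and AI467606. Kif22 was higher in the cerebellum and cortex, at 6.719 ± 0.242 (SD, n = 5) and 6.679 ± 0.219 (n = 4), than in the olfactory bulb and brain stem, at 6.523 ± 0.206 and 6.515 ± 0.194 (n = 5). Its adjusted p was 0.00302, and the call held without each of the 5 mice in turn. In +/+ mice the Kif22 means lay between 6.517 in the cerebellum and 6.680 in the olfactory bulb, with an adjusted p of 0.483.

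Mylpf was lowest in the olfactory bulb of these mice, at 5.796 ± 0.125 (SD, n = 5), and highest in the cortex, at 6.057 ± 0.178 (n = 4). The test over regions gave an adjusted p of 0.0208, and 0.118 and 0.117 without dp/+ mouse 1 and without dp/+ mouse 2. AI467606 was also lowest in the olfactory bulb, at 6.360 ± 0.109 (n = 5), and highest in the brain stem, at 6.565 ± 0.286 (n = 5). Its adjusted p of 0.0376 rose above the threshold when df/+ mouse 2 (0.0515), dp/+ mouse 1 (0.101) or dp/+ mouse 2 (0.181) was left out. It was also above it with the first array only (0.116), a trended prior (0.0519) and array weights (0.0915). Zg16, Spn, Septin1 and 4930451I11Rik did not pass the test over regions. Of their pairs, the cerebellum of Zg16 exceeded the brain stem by 0.336 ± 0.112 (SE, adjusted p = 0.0204, limma), with 0.0758 for the test over regions. For 4930451I11Rik the cortex minus the cerebellum was −0.294 ± 0.104 (adjusted p = 0.0274, limma), with 0.0576 over regions. The count of 5 was 2 without df/+ mouse 2 and 2 without dp/+ mouse 1, and it was 0 with the mouse left out of the model.

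The last comparison set each gene beside lists of its known partners and of the cells that use it, none of which holds an interval gene. Across the brain no gene of these lists passed the threshold for a slope on copy number in limma's fit, with at most 2 of a list at an unadjusted p below 0.05. With array weights 5 of 11 goblet and acinar cell genes, 6 of 18 lymphocyte genes, 3 of 9 neuroblast genes and 3 of 9 neutrophil genes passed. Of every other list 0 to 4 genes passed, and of all genes 8.11%. With a trended robust prior 1 of 9 neuroblast genes passed, against 0.522% of all genes. Medians of the lists are given beside those of all genes, which were −0.013 in df/+ and −0.007 in dp/+ mice. Summed signals of the region markers in dp/+ mice lay within the +/+ range or overlapped it for olfactory bulb, cerebellum and brain stem. Brain stem markers were 104.6% to 110.5% in df/+ mice and 98.8% to 101.7% in +/+ mice. For cortex markers they were 88.3% to 92.8% of +/+ in dp/+ mice, 95.1% to 105.3% in +/+ and 95.8% to 101.5% in df/+ mice, and the part of these shifts in the values of the 9 genes was not tested. The dp/+ medians of several lists depended on the scaling. After cyclic loess and after quantile normalisation within regions they were 0.037 and 0.048 for lymphocytes, 0.003 and 0.014 for neutrophils, 0.088 and 0.088 for goblet and acinar cells, and 0.068 and 0.073 for presomitic mesoderm. They were 0.024 and 0.037 for fast muscle and 0.023 and 0.015 for spermatids and sperm. For mitosis they turned to −0.026 and −0.032, and for the T-box genes to −0.001 and −0.006.

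Of the other T-box genes, 14 of 16 were measured, with median changes of −0.001 in df/+ and 0.063 in dp/+ mice, and 9 differed between +/+ regions. Tbx21 and Eomes, T-box factors of bulb projection neurons, and Tbr1, a factor of cortical projection neurons, were among them, and these 3 also stand in the marker lists of bulb or cortex. Tbx21 had means of 9.134 in the olfactory bulb and 6.487 to 6.627 elsewhere (adjusted p = 4.18e-12, limma), while Tbx20, a cardiac and motor neuron factor, was highest in the brain stem at 6.485 against 5.590 to 5.633. The smallest p for a slope were those of Tbx18 (0.105 ± 0.036), Tbx20 (0.109 ± 0.041) and Tbx19 (0.082 ± 0.044), with adjusted p of 0.697, 0.697 and 0.717. Of 13 genes of the presomitic mesoderm, where Tbx6 acts with Notch and Wnt signals, 12 were measured, with medians of 0.055 and 0.134. Mesoderm genes named by the smallest slope p were Fgf8, Ripply2 and Wnt3a, with slopes of 0.076, 0.064 and 0.077. Of the 12, 5 differed between +/+ regions, and the Notch ligand Dll1 was highest in the olfactory bulb, at 8.039 against 6.983 to 7.403.

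For Kif22, 29 of 31 genes of mitosis were measured, with medians of 0.001 in df/+ and 0.048 in dp/+ mice. The checkpoint kinase gene Bub1 (0.104 ± 0.037), the kinesin gene Kif14 (0.081 ± 0.036) and Prc1 (0.090 ± 0.046) had the smallest slope p, with adjusted p of 0.697 to 0.717. Over +/+ regions 8 differed, and the cyclin gene Ccnb2 was highest in the cerebellum, at 7.948 against 7.318 to 7.518 (adjusted p = 6.07e-05). Of 10 genes of neuroblasts, the dividing and migrating cells that reach the adult bulb, 9 were measured and all 9 differed between +/+ regions, with medians of −0.096 and −0.077. The interneuron factor Dlx1 was 11.938 in the bulb and 6.593 in the cerebellum, and its slope of 0.262 ± 0.054 had an adjusted p of 0.261. The next smallest slope p were those of Igfbpl1 (0.105 ± 0.044) and Cd24a, whose slope of −0.143 ± 0.070 was falling, with adjusted p of 0.707 and 0.717 (limma).

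For Qprt, all 19 genes of NAD synthesis and tryptophan breakdown were measured, with medians of −0.020 and −0.002. Of the enzymes upstream of quinolinate, Kynu had a slope of 0.123 ± 0.044 and Haao, whose product turns into quinolinate, 0.098 ± 0.045, with adjusted p of 0.697 and 0.717. Kyat1, the other gene of the list with the smallest slope p, had a falling slope of −0.066 ± 0.049 (adjusted p = 0.75, limma). Over +/+ regions 12 differed. Tdo2, the first enzyme of the route, was 7.785 in the cerebellum against 4.891 to 5.541 (adjusted p = 4.16e-12), and Nadsyn1, the last, was also highest there at 7.714 against 7.166 to 7.375. The summed signal of the list was 95.5% to 97.0% of +/+ in df/+, 97.3% to 101.5% in +/+ and 93.7% to 95.3% in dp/+ mice, and its part in the values of Qprt was not tested.

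For Mylpf, all 16 other genes of fast skeletal muscle were measured, with medians of 0.034 and 0.095, and 6 differed between +/+ regions. Tnni2, fast troponin I, had a slope of 0.132 ± 0.064, Myoz1 0.071 ± 0.045 and Myh4, a fast myosin heavy chain, 0.051 ± 0.043, with adjusted p of 0.717, 0.728 and 0.776. The summed signal of the list was 101% to 104% of +/+ in df/+, 93.7% to 106.4% in +/+ and 102% to 109.5% in dp/+ mice.

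For Spn, Septin1 and AI467606, 18 of 23 genes of lymphocytes were measured, with medians of −0.004 in df/+ and 0.117 in dp/+ mice, where 17 of the 18 were above 0, as were 9534 of the 19938 genes. None of the 18 passed the threshold in dp/+ mice. Their summed signal was 98.6% to 104.5% in df/+, 96.4% to 104.8% in +/+ and 107.6% to 108.5% in dp/+ mice. The cytotoxic granule gene Nkg7 (0.154 ± 0.047), the T cell receptor subunit Cd3g (0.10 ± 0.039) and Cd8b1 (0.086 ± 0.040) had the smallest slope p, with adjusted p of 0.697, 0.697 and 0.717. In +/+ regions 5 differed, among them Cd4, which was highest in the cortex at 6.744. The list lies low in the signal range, with its median at the 23.4th percentile. The dp/+ mice lay above all +/+ mice for Spn and AI467606 and overlapped them for Septin1, and the part of other cells in these values was not tested.

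Neutrophil genes, 9 of 9 measured, had medians of −0.010 and 0.091 and summed signals of 97.7% to 98.9% in df/+, 93.8% to 108.6% in +/+ and 102.2% to 109.1% in dp/+ mice. In the olfactory bulb of +/+ mice the granule gene Ngp was 6.514 ± 0.492 (SD, n = 3) against 5.395 to 5.523 elsewhere (adjusted p = 1.98e-05). Microglia genes, 9 of 10 measured, had medians of −0.031 and −0.072 and summed signals of 97.1% to 100.9%, 94.8% to 105.3% and 89.2% to 99.98% in the order df/+, +/+ and dp/+. The complement genes C1qb (−0.148 ± 0.056) and C1qa (−0.114 ± 0.071) and the chemokine receptor Cx3cr1 (0.068 ± 0.057) had the smallest slope p, with adjusted p of 0.697, 0.723 and 0.770. The median of this list lay at the 60.7th percentile of signal, in decile 7, where genes outside the interval had a dp/+ median of −0.078. Of the other septins, 11 of 12 were measured, with medians of −0.049 and −0.016, and 9 differed between +/+ regions. Septin4 was highest in the cerebellum at 11.297 and Septin9 lowest there at 8.098 (adjusted p = 1.94e-08 and 1.69e-10), whereas Septin1 did not pass.

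For Zg16, 11 of 13 genes of goblet and acinar cells were measured, with medians of 0.039 in df/+ and 0.163 in dp/+ mice. Ctrb1, a pancreatic protease gene, passed the threshold in dp/+ mice with 0.242 ± 0.055 log2, or 118.3% of +/+ (adjusted p = 0.0492, limma), as did 1.86% of all genes. No gene of the list passed in dp/+ mice with centred arrays, cyclic loess, quantile normalisation within regions, a trended prior, the replicate number as a block or all 31 samples, nor when any mouse but +/+ mouse 1 was dropped. The summed signal was 99.4% to 106.2% in df/+, 95.7% to 104.5% in +/+ and 108.3% to 114.4% in dp/+ mice. For 4930451I11Rik, 16 of 17 genes of spermatids and sperm were measured, with medians of 0.011 and 0.075, and 4 differed between +/+ regions. Acrv1, an acrosome gene, had a slope of 0.106 ± 0.037 (adjusted p = 0.697). These lists, like Zg16 and most of the 9 genes, lie in the lower range of signal, where dp/+ medians of genes outside the interval were 0.073 to 0.098.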

How the data were processed

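The authors deposited log2 signal values of 35556 probe sets on 37 Affymetrix arrays. Tools listed in the processing notes of the submitters are Affymetrix Expression Console and RMA. The base of the logarithm is not labelled and was read from the range of the values. The genome build of the array annotation is not given in the sources used here. Array quartiles ranged from 5.72 to 6.089 (lower), 7.297 to 7.492 (median) and 9.092 to 9.313 (upper). Precision is limited by how many mice there are, since arrays of the same mouse are not independent replicates. The labels give no batch.

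From these values, 21789 probe sets with 1 gene symbol gave 19938 genes, each by its probe set of highest mean, while 1621 had several symbols and 12146 none. Of the 21789, 21698 were found in the reference (GRCm38.p6) and 91 were not. The 6 samples with 2 arrays were averaged. The olfactory bulb of +/+ mouse 3 had only the array labelled as technical repeat 2.

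limma 3.58.1 (R 4.3.3; lmFit, eBayes) fitted 1 value per mouse across the brain. It fitted all 31 samples for slopes within regions, with the mouse as a random block (correlation 0.15), and used the mouse as a fixed block for regional differences. P-values were adjusted by Benjamini and Hochberg over 19938 genes, with a threshold of 0.05. For pairs of regions the adjustment ran over all genes and the 6 pairs together. The scripts were tested on simulated data.

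The 9 genes and all lists were chosen with earlier results of these data known. Named genes are all 9, the 2 lowest and 2 highest slopes among other interval genes past the threshold, and up to 4 genes per list by smallest p (3 where none passed). For a gene that differed between +/+ regions, the 3 genes most like it by Pearson's r are named. Alternatives were the first array only, median centring, cyclic loess, quantile normalisation within regions, a trended robust prior, array weights, brighter genes only, other blocks, a slope on the copies themselves, all probe sets, all 8 mice for regions, and each mouse left out. Of 33 listed interval genes, 3 (Ino80e, Mapk3 and Prrt2) lacked a probe set naming them alone and were not analysed here. No detection call was used.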

Additional observations from a re-analysis of the deposited data

Results flagged for a closer look

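The df/+ samples of Qprt lay on opposite sides of the +/+ mean in different regions. Relative to the +/+ mean of the region, the df/+ samples changed by −0.29 log2 in the olfactory bulb (both samples, −0.36 and −0.22), by −0.22 in the brain stem (−0.28 and −0.15) and by 0.12 in the cortex (0.01 and 0.23), with n = 2 in each. Every df/+ sample lay below the +/+ mean in the bulb and brain stem and above it in the cortex. In the bulb and the cortex they overlapped the +/+ samples, and in the cerebellum 1 lay below and 1 above the +/+ mean, at 7.37 and 7.64 log2. The difference between these regions in df/+ mice was not itself tested. The slope of Qprt on copy number, which uses dp/+ mice as well, did not pass the test for a difference between regions (limma's F test, adjusted p = 1). The +/+ cortex values of Qprt, to which the df/+ cortex is compared, spread from 6.792 to 7.189.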

How the results depend on the processing

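The median slope of the 9 genes stayed above 0 under all alternatives run, and without any 1 mouse it ran from 0.149 to 0.197. The df/+ median ran from −0.16 to −0.0468 and the dp/+ median from 0.162 to 0.216 without 1 mouse, and regional slope medians ran from 0.109 to 0.178 in the bulb, 0.129 to 0.246 in the cortex, 0.0683 to 0.225 in the cerebellum and 0.103 to 0.15 in the brain stem. The dp/+ median of 0.164 was 0.0896 after cyclic loess and 0.113 after quantile normalisation within regions, and the cerebellum slope of 0.128 was 0.237 with array weights, and the cause was not tested. The count of genes that differed between +/+ regions, 2, was 1 with centred arrays and with cyclic loess, 4 with all 8 mice, and 0 among brighter genes, where 1 of the 9 was left. It was 0 to 1 without 1 +/+ mouse. The 5 pairs of +/+ regions became 0 among brighter genes and 0 to 4 without 1 mouse. The count of genes that differed between regions in df/+ and dp/+ mice, 5, was 3 with the first array only or cyclic loess, 1 among brighter genes (4930451I11Rik, none of the 5), 0 without the replicate block of the mouse, and 2 to 6 without 1 mouse. None of the 9 genes passed the test for a slope that differs between regions under any setting run (0 to 0 without 1 mouse).

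Deviations of same-numbered mice of different genotypes correlated between −0.38 and 0.17. These correlations rest on few mice per genotype, so they cannot show whether same-numbered mice were processed together. With the replicate number as a block the median slope was 0.18, the df/+ median −0.11 and the dp/+ median 0.164. Fits with a lone df/+ mouse borrow its spread from +/+ and dp/+ mice, which is an assumption. The 2 df/+ mice, the array error of dim probe sets and the lack of a batch label limit these values.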
